A study of Arabidopsis thaliana with 12 samples.

Results

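The mRNA levels of 8 genes for nitrate uptake and nitrogen assimilation were compared between wild type and trm5-1 leaves of Arabidopsis thaliana. The 8 genes were chosen by name, as the rows of NIA1, NIA2, NIR1, NRT2.1, NRT1.1, GLN2, GLU1 and ASN1 among the 33610 genes of the count table, and all 8 were found there. They and the lists of related genes used below were chosen with earlier results of these data known. Leaf RNA of 20-day-old plants was sequenced in 3 libraries of wild type (Columbia accession, Col-0) and 3 of trm5-1, which the labels number as replicates 2, 3 and 4. A supplementary legend of the study describes the same RNA-seq as coming from 10-day-old seedlings, and the hour of harvest, the photoperiod and the nitrogen supply of these samples were not given in the sources used here. The mutant trm5-1 carries a T-DNA insertion in TRM5 (AT3G56120), the gene of a tRNA guanine and inosine methyltransferase, and it is a single allele, so effects of the insertion and of other changes in that line cannot be told apart.

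Plants take up nitrate through membrane transporters and reduce it to nitrite in the cytosol with nitrate reductase. Nitrite reductase in the plastid then forms ammonium, which glutamine synthetase and glutamate synthase build into glutamine and glutamate. Asparagine synthetase moves the amide group of glutamine to asparagine, a form in which nitrogen is carried and stored. In leaves several of these genes are known to respond to nitrate, light, sugars and the circadian clock.

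TRM5 itself had 179, 643 and 526 counts in wild type and 100, 72 and 110 counts in trm5-1. As CPM, counts scaled to a common library size by the trimmed mean of M values (TMM), these were 13.3, 22.8 and 19.7 CPM against 4.92, 2.75 and 4.08 CPM. The genotypes did not overlap, with a log2 fold change of -2.25 (standard error 0.31) and an adjusted p of 0.0226. Unless another tool is named, adjusted p-values of genes come from edgeR (quasi-likelihood, adjusted by Benjamini-Hochberg over 19408 tested genes), fold changes are trm5-1 over wild type, and values of a genotype are listed in the order of replicates 2, 3 and 4. Library totals ran from 14954658 to 26927531 counts. All 8 leaf marker genes were counted in every library, with a summed level of 24880 to 25360 CPM in wild type and 7247 to 16620 CPM in trm5-1, and all 8 had a negative log2 fold change, of which that of PSAD1, a photosystem I subunit, passed the test (-1.77, adjusted p = 0.0396). Of 8 root marker genes, 7 had 5 counts or fewer in every library, while the root and seedling glucosidase PYK10 had 2, 589 and 358 counts in wild type and 7, 2 and 139 in trm5-1. The part of these differences in the results that follow was not tested. In bulk samples fewer cells of a type and less RNA per cell cannot be told apart.

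Of the 8 genes, 7 had enough reads for the test and NRT2.1 did not. None of the 7 passed it in either direction, where 7.15% of all tested genes were called lower and 4.30% higher in trm5-1. At an unadjusted p under 0.05, 1 gene (NIA1) of the 7 was lower and 0 were higher, against 19.2% and 13.6% of all tested genes. DESeq2 called 1 of 8 lower, again NIA1, and 0 higher, against 14.7% and 9.11% of the genes it tested. The libraries of the genotypes did not overlap, lower in trm5-1, for 1 of the 7, against 20.0% of all tested genes, and for 0 of the 7 higher in trm5-1, against 19.7%. The log2 fold change was negative for 5 and positive for 2, with a median of -0.36 against -0.00094 over all tested genes.

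The spread among the 3 wild type libraries was wide for most of these genes. Among wild type libraries, replicate 2 was the highest for 7 of the 8 genes and replicate 3 the lowest for 7 of the 8, with ASN1 as the exception in both. The share of all tested genes with this order was not determined, and wild type replicate 2 had the lowest library total (14954658 counts). In each genotype the level of replicate 4 lay between those of replicates 2 and 3 for all 8 genes. Over all tested genes this held for 81.4% in wild type, 68.4% in trm5-1 and 56.9% in both. Whether replicate 4 was independent of the other replicates was not tested, and every n of 3, standard error and p given here takes it as independent. Values without replicate 4 are therefore given where they bear on a result.

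**Figure D1:**
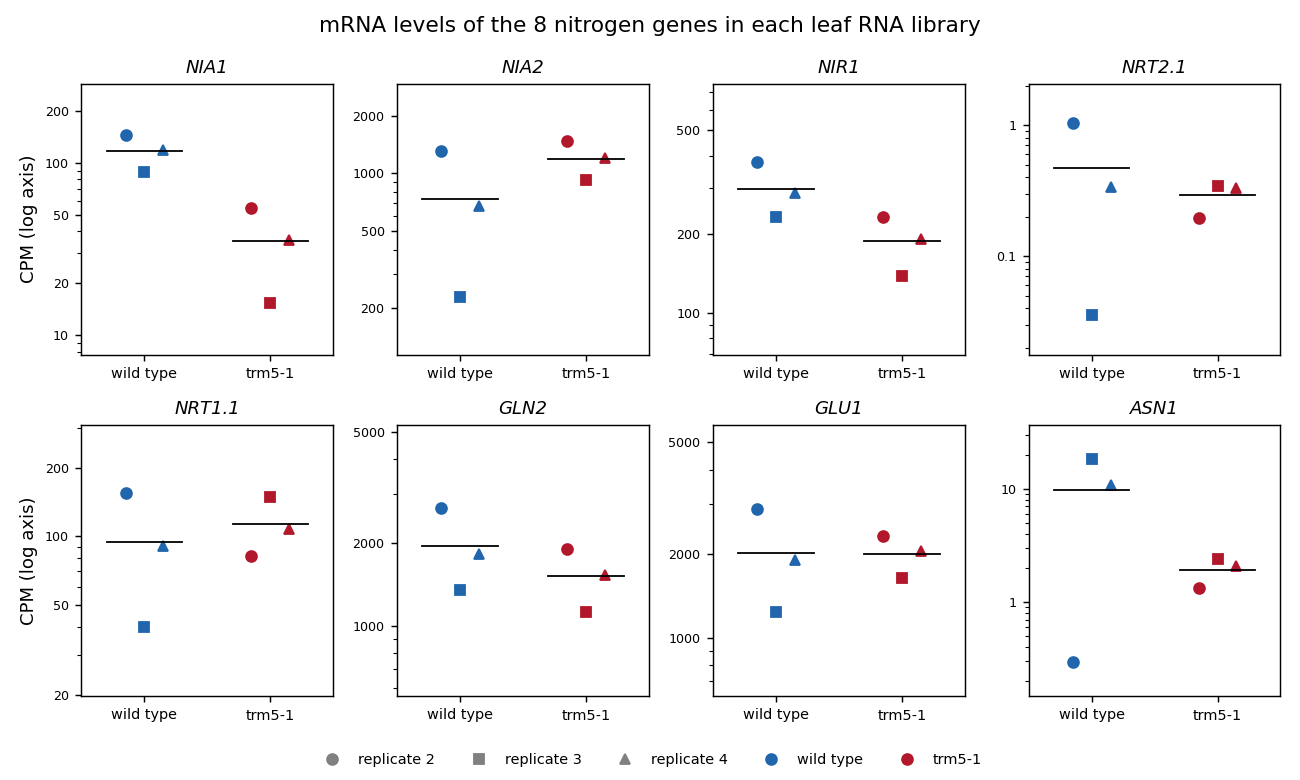
Level of each of the 8 nitrogen genes in CPM on a log axis, with a panel per gene, a point per library (symbol by replicate number, blue for wild type and red for trm5-1) and a black line at the mean of 3 libraries. Only NIA1 has its 3 trm5-1 libraries (15.4 to 54.4 CPM) all below its 3 wild type libraries (88.8 to 143.9 CPM).

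Nitrate reductase, which reduces nitrate to nitrite, is encoded by NIA1 (AT1G77760, chr1:29235721-29239484, minus strand, 4 exons) and NIA2 (AT1G37130, chr1:14158452-14161938, plus strand, 3 exons) in TAIR10.1. NIA1 was lower in each trm5-1 library than in any wild type library, and NIA2 was not, so the 250 bases before the annotated start of each gene are shown, 5′ to 3′ on the strand of the gene, from the RefSeq TAIR10.1 sequence (chr1:29239485-29239734 for NIA1 and chr1:14158202-14158451 for NIA2). Capitals mark matches, on either strand, to 5 motifs that were searched: the G-box core CACGTG, the motif ACTCAT, the I-box core GATAAG, the evening element AAAATATCT and the core pattern of the nitrate-responsive element.
NIA1: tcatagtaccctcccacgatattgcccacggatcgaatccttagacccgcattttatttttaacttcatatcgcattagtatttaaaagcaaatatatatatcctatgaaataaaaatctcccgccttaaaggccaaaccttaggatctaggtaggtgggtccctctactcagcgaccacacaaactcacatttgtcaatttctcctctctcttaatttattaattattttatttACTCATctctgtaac
NIA2: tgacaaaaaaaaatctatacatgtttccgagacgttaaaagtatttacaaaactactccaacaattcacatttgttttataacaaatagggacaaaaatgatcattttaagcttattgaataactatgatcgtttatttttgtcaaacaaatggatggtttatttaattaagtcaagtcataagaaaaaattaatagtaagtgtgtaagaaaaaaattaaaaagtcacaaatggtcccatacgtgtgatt

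The NIA1 window held 1 match, to ACTCAT, which begins 15 bases before the annotated start, and the NIA2 window held none. Of 27443 windows of the same length before protein-coding genes, 12.3% held ACTCAT, 12.3% GATAAG, 6.49% CACGTG, 2.36% AAAATATCT and 0.146% the core pattern of the nitrate-responsive element. No base was in 2 of the matches shown, and a match is a description of letters, not of a bound site. The 50-base stretches of the exons of NIA1 and NIA2 had 0 exact copies elsewhere in the 5 chromosomes (0 of 2959 and 0 of 3058), so the 2 genes share no such stretch.

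NIA1 had 1942, 2506 and 3172 counts in wild type and 1105, 403 and 959 in trm5-1. Its levels were 143.9, 88.8 and 118.6 CPM in wild type and 54.4, 15.4 and 35.5 CPM in trm5-1, means of 117.1 ± 27.6 and 35.1 ± 19.5 CPM (SD, n = 3). The highest trm5-1 library was below the lowest wild type library. This gave a log2 fold change of -1.74 (standard error 0.46, 3.34-fold lower), and the adjusted p of 0.0602 missed the threshold of 0.05. It passed with upper quartile normalization (-1.84, adjusted p = 0.0479), a scaling under which the median of all tested genes shifted to -0.12, and with DESeq2 (-1.73, adjusted p = 0.00411), and the adjusted p ran from 0.00411 to 0.560 over 14 alternatives. The log2 fold change stayed between -2.18 and -1.36 over them and was -1.74 without replicate 4 of both genotypes.

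NIA2, which codes for the main isoform of nitrate reductase in leaves, had 1304, 227 and 679 CPM in wild type and 1467, 922 and 1198 CPM in trm5-1. The genotypes overlapped, because wild type replicate 2 lay above trm5-1 replicates 3 and 4. The wild type libraries differed 5.74-fold among themselves and those of trm5-1 1.59-fold. At 0.70 (standard error 0.62) the log2 fold change had an adjusted p of 0.466, was smaller than the spread within wild type, and went to 0.27 without wild type replicate 3 and to 1.42 without wild type replicate 2.

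The share of NIA2 in the counts of both nitrate reductase genes is a ratio within each library and does not depend on the scaling between libraries. Wild type had shares of 90.1%, 71.9% and 85.1%, and trm5-1 had shares of 96.4%, 98.4% and 97.1%. Each trm5-1 library was above each wild type library. The means were 82.4% ± 9.38 and 97.3% ± 0.981 (SD, n = 3), a difference of 14.9 percentage points. The exact permutation test, two-sided, gave p = 0.1, the lowest value that 3 libraries against 3 allow. The difference was 9.71 points without wild type replicate 3, up to 18.8 points with another library left out, and 16.4 points without replicate 4. The summed level of the pair was 316 to 1448 CPM in wild type and 937 to 1521 CPM in trm5-1, and these ranges overlapped.

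NIR1 (AT2G15620, chr2:6810395-6812941, plus strand, 4 exons) codes for nitrite reductase, the plastid enzyme that turns nitrite into ammonium. Its levels were 377, 232 and 288 CPM in wild type and 233.6, 139 and 193 CPM in trm5-1. The genotypes overlapped only in that trm5-1 replicate 2 reached just above wild type replicate 3. For NIR1 the log2 fold change was -0.67 (standard error 0.29), with an adjusted p of 0.165, and it ran from -0.83 to -0.45 over 14 alternatives.

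NRT1.1 (AT1G12110, chr1:4105223-4109601, plus strand, 5 exons) codes for a plasma membrane transporter and sensor of nitrate. It had 154.3, 39.7 and 90.2 CPM in wild type and 81.8, 149.4 and 107.8 CPM in trm5-1. Replicate 2 was the highest library of wild type and the lowest of trm5-1, and the genotypes overlapped across most of their ranges. With a standard error of 0.50, the log2 fold change of 0.26 had an adjusted p of 0.744, and it turned to -0.11 without wild type replicate 3.

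NRT2.1 (AT1G08090, chr1:2524023-2526322, plus strand, 3 exons) codes for a high-affinity nitrate transporter known mainly from roots. It had 14, 1 and 9 counts in wild type and 4, 9 and 9 counts in trm5-1, or 24 counts over wild type and 22 over trm5-1. A difference between the genotypes was not detectable at this depth, and no fold change is given. Of its 1964 exon stretches of 50 bases, 8.86% also occur elsewhere in the genome, so some of these reads are uncertain.

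GLN2 (AT5G35630, chr5:13830429-13833542, plus strand, 11 exons) codes for the plastid glutamine synthetase, which joins ammonium to glutamate. Its levels were 2655, 1349 and 1818 CPM in wild type and 1895, 1121 and 1527 CPM in trm5-1. The genotypes overlapped, with wild type replicate 3 below trm5-1 replicates 2 and 4. Its log2 fold change of -0.36 (standard error 0.40) came with an adjusted p of 0.565, and the fold change ran from -0.56 to -0.04 over 14 alternatives.

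The cytosolic glutamine synthetase gene GLN1;1 rose. It had 159.4, 172.2 and 163.8 CPM in wild type and 364.7, 623.7 and 469.8 CPM in trm5-1. The wild type libraries lay within 1.08-fold of each other and all trm5-1 libraries lay above them, with a log2 fold change of 1.56 (standard error 0.26) and an adjusted p of 0.0279. Without replicate 4 of both genotypes the GLN1;1 fold change was 1.58 and its adjusted p of 0.547 did not pass. With 1 library left out the fold change lay between 1.36 and 1.75. GLN1;1 passed without wild type replicate 2 (adjusted p = 0.0142) or replicate 3 (adjusted p = 0.0448). It did not pass without wild type replicate 4 (adjusted p = 0.159) or without trm5-1 replicate 2, 3 or 4 (adjusted p = 0.0549, 0.0862 and 0.1545). GLN1;2 (0.01, adjusted p = 0.987), GLN1;3 (0.60, adjusted p = 0.119) and GLN1;4 (-0.12, adjusted p = 0.810), which with GLN1;5 make up the rest of the family, did not pass the test.

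GLN2 supplied 80.7%, 73.9% and 77.4% of the glutamine synthetase counts in wild type and 70.5%, 52.8% and 63.5% in trm5-1. Each trm5-1 library was below each wild type library. The means were 77.3% ± 3.40 and 62.3% ± 8.95 (SD, n = 3), a difference of -15.0 points (two-sided exact permutation p = 0.1, again the lowest possible). With 1 library left out the difference lay between -19.2 and -10.3 points, and without replicate 4 it was -15.6 points.

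**Figure D2:**
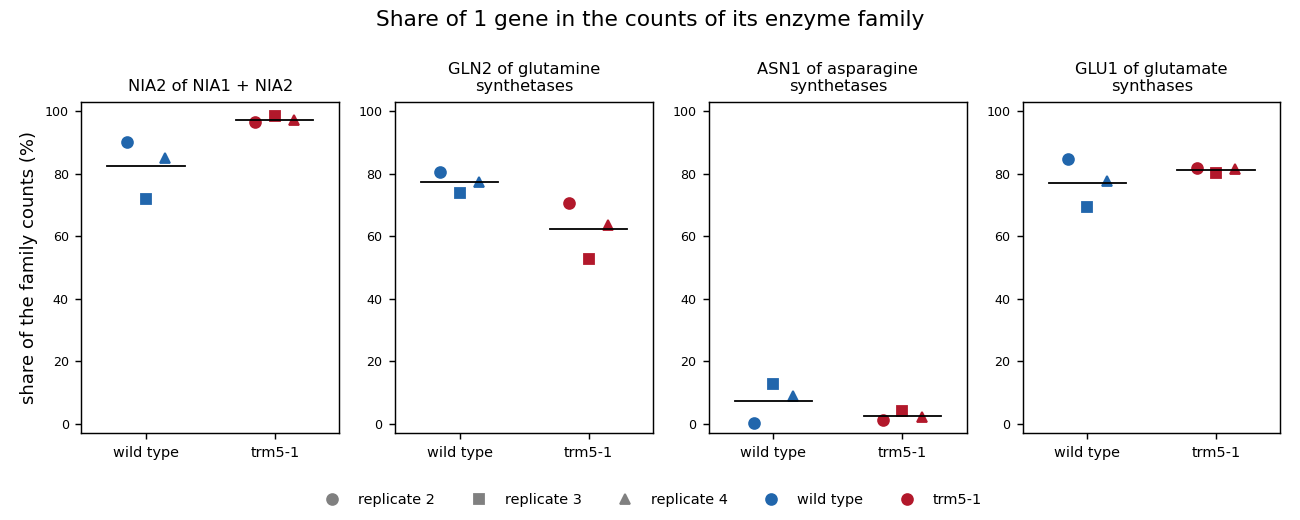
Share of the family counts in percent supplied by NIA2, GLN2, ASN1 and GLU1, with a point per library (blue for wild type, red for trm5-1, symbol by replicate number) and a black line at the mean of 3 libraries. The trm5-1 points lie above those of wild type for NIA2 (96.4% to 98.4% against 71.9% to 90.1%) and below them for GLN2 (52.8% to 70.5% against 73.9% to 80.7%), and the points overlap for ASN1 and GLU1.

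GLU1 (AT5G04140, chr5:1129785-1138488, plus strand, 33 exons) codes for the main ferredoxin-dependent glutamate synthase of leaves, which forms glutamate from glutamine and 2-oxoglutarate. It had 2889, 1239 and 1901 CPM in wild type and 2317, 1633 and 2048 CPM in trm5-1. All trm5-1 libraries lay within the range of wild type, with means of 2009 ± 831 CPM in wild type and 1999 ± 345 CPM in trm5-1 (SD, n = 3). Its log2 fold change of -0.01 (standard error 0.42) had an adjusted p of 0.994. GLU1 supplied 84.6%, 69.4% and 77.5% of glutamate synthase counts in wild type and 81.9%, 80.2% and 81.6% in trm5-1, beside GLU2 and the NADH-dependent GLT1, and the difference was 4.06 points (two-sided exact permutation p = 0.6, n = 3 per genotype). It was 0.176 points without wild type replicate 3 and 7.77 points without wild type replicate 2. The gene overlaps AT5G04150 by 79 bases in the annotation.

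ASN1 (AT3G47340, chr3:17437840-17441431, minus strand, 10 exons), also known as DIN6, codes for an asparagine synthetase that is known to be induced in the dark and repressed by sugar. It had 4, 519 and 289 counts in wild type and 27, 63 and 56 counts in trm5-1. In CPM these were 0.296, 18.4 and 10.8 against 1.33, 2.403 and 2.08, so wild type replicate 2 lay below every trm5-1 library and the other wild type libraries lay above all of them. The highest wild type library was 62.1-fold above the lowest, and in trm5-1 this ratio was 1.81. The log2 fold change was -2.35 (standard error 1.096), with an adjusted p of 0.191, and without wild type replicate 2 it was -2.88 with an adjusted p of 0.00458. The latter fit called 4334 of all 20199 genes lower. The fold change was -1.55 without wild type replicate 3 and -1.07 with limma on the normalized values, where neither passed the test. Over 13 alternatives the adjusted p ran from 0.00458 to 0.706.

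ASN1 was a small part of the asparagine synthetase counts, which came mostly from ASN2 and ASN3. Wild type had ASN1 shares of 0.326%, 12.6% and 8.99%, and trm5-1 had 1.106%, 3.98% and 2.28%. The wild type range enclosed that of trm5-1, and the difference was -4.86 points (two-sided exact permutation p = 0.4, n = 3 per genotype). It was -2.21 points without wild type replicate 3 and -8.35 points without wild type replicate 2. The gene overlaps AT3G47341 by 11 bases.

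The highest wild type library was over 2-fold above the lowest for 6 of 9 tested genes of dark and sugar starvation and for 11 of 11 tested clock genes, against 37.7% of all tested genes and 4 of the 7 tested nitrogen genes. The other 3 starvation genes had narrow wild type ranges, DIN4 (1.275-fold), DIN9 (1.104-fold) and DRM1 (1.197-fold). The genes described next were chosen after their values were seen. DIN1, another dark-inducible gene, had 0.963, 9.92 and 5.65 CPM in wild type and 3.40, 4.35 and 4.15 CPM in trm5-1. The clock gene PRR7 had 17.1, 179.2 and 115.8 CPM against 11.9, 32.1 and 19.3 CPM. Wild type replicate 2 was low for both, as for ASN1. The tested clock genes CCA1, PRR5, GI, FKF1 and LNK1 were also lowest in wild type replicate 2. The remaining tested clock genes, TOC1, LUX, LHY, ELF4 and RVE8, were instead highest in wild type replicate 2 and lowest in replicate 3. That order, with replicate 2 high and replicate 3 low, was also seen for NIA2, for NRT1.1, for DIN10 (427.3, 79.3 and 220.2 CPM) and for PRODH1, the proline dehydrogenase gene (71.9, 9.50 and 36.4 CPM). Of 13 dark and sugar starvation genes 9 were tested, of which 1 fell (SEN5, -2.48, adjusted p = 0.0413) and 0 rose. The shares called over all tested genes were 7.15% lower and 4.30% higher. Of 12 clock genes 11 were tested and edgeR called 0, with 4 lower and 1 higher at an unadjusted p under 0.05, a level that 19.2% of all tested genes reached as lower and 13.6% as higher. The part of these differences in the levels of the nitrogen genes was not tested.

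**Figure D3:**
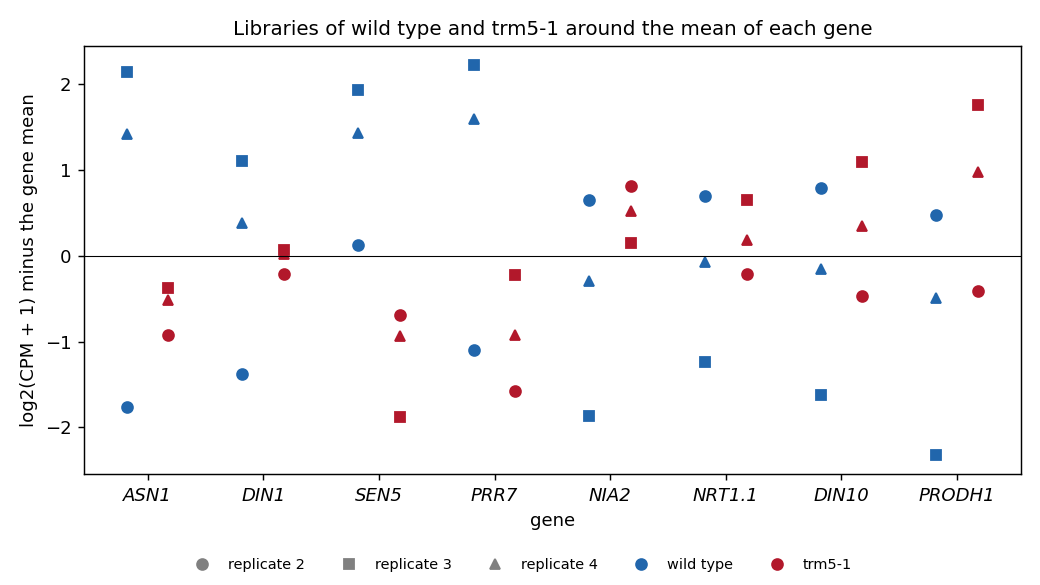
Level of ASN1, NIA2 and NRT1.1 and of 5 genes of the starvation and clock lists in each library, as log2(CPM + 1) minus the mean over 6 libraries of that gene (blue for wild type, red for trm5-1, symbol by replicate number). The genes were chosen after their values were seen, and they show wild type replicate 2 low for ASN1 (0.296 CPM), DIN1, SEN5 and PRR7 and wild type replicate 3 low for NIA2 (227 CPM), NRT1.1, DIN10 and PRODH1. Clock genes that are not drawn showed both orders.

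For NIA2, NRT2.1 and ASN1, the 3 tested genes with the most similar profile over the 6 libraries were sought, by the root mean square difference of centred log2(CPM + 1) values among genes with a mean of at least 5 CPM. For NIA2 they were PAP1 (AT2G01180, difference 0.0395), TCH3, a calmodulin-like gene (0.0434), and AT3G05500 (0.0604). For ASN1 they were CIA2 (0.19), CH1, the gene of chlorophyllide a oxygenase (0.315), and MIR850 (0.317), and for NRT2.1 they were AT3G07400 (0.0527), CESA6 (0.0534) and MEE31 (0.0568). The likeness to NRT2.1 rests on its 1 to 14 counts per library. At its 0.0354 to 1.04 CPM the added 1 flattens its differences, so these genes need not share its changes in proportion. The genes named are the closest of 14226 (NIA2 and ASN1) or 14227 (NRT2.1), and how close unrelated genes come was not tested.

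Per kilobase of the longest annotated transcript, the order of levels in wild type was GLN2 (mean 1030 CPM per kb), GLU1 (371), NIA2 (229.9), NIR1 (136.5), NRT1.1 (43.0), NIA1 (37.1), ASN1 (4.03) and NRT2.1 (0.223). The ranges of GLU1 and NIA2, of NIA2 and NIR1, of NRT1.1 and NIA1 and of ASN1 and NRT2.1 overlapped, and those of the other neighbours did not. In trm5-1 the mean of NIA2 (373 CPM per kb) stood next to that of GLU1 (369.1) with overlapping ranges, NIA1 was at 11.1 and ASN1 at 0.794 CPM per kb. NIR1 and NRT1.1 also overlapped in trm5-1.

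A further 91 nitrogen genes in 5 lists were examined beside these 8, and 80 of them were tested. Of the 80, 4 fell and 6 rose in trm5-1, or 35 with a negative and 45 with a positive log2 fold change and a median of 0.07. Over all tested genes 7.15% were called lower and 4.30% higher. At an unadjusted p under 0.05, 6 of the 80 were lower and 16 higher, where all tested genes had 19.2% lower and 13.6% higher. Without wild type replicate 2 the calls in the lists were 10 lower and 16 higher of 82 genes. That fit called 4334 lower and 3263 higher of all 20199 genes it tested. Without wild type replicate 3 the calls were 2 and 3 of 80, against 525 and 417 of all 19607. Without trm5-1 replicate 2 they were 0 and 1 of 82, against 63 and 149 of all 20186. They were 0 and 0 without wild type replicate 4, without trm5-1 replicate 3, without trm5-1 replicate 4 or without replicate 4 of both genotypes. Over all genes, 0 of 19626 were called without wild type replicate 4 and 0 of 20110 without trm5-1 replicate 4. Without trm5-1 replicate 3 the calls were 9 lower and 21 higher of all 20142. Without replicate 4 of both genotypes 0 genes of the whole table were called, with 1113 lower and 608 higher at an unadjusted p under 0.05. The 10 genes kept their direction in all of these fits. Their genotypes did not overlap, so leaving out libraries could hardly have reversed it, and this is not a test of the calls.

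Among 17 tested nitrate transporters 2 fell and 1 rose, where 7.15% of all tested genes were called lower and 4.30% higher. NRT1.12, which moves nitrate into phloem, had 13.3, 40.7 and 29.5 CPM in wild type and 7.58, 7.28 and 6.56 CPM in trm5-1 (log2 fold change -1.97, standard error 0.40, adjusted p = 0.0375). NRT1.4, a transporter known from leaf petioles, had 27.2, 30.4 and 31.3 against 17.6, 17.4 and 19.3 CPM (-0.71, standard error 0.13, adjusted p = 0.0311). All trm5-1 libraries were below those of wild type for both. NRT2.5, a high-affinity transporter known to be induced by nitrogen starvation, had 0, 1 and 4 counts in wild type and 11, 82 and 34 counts in trm5-1, with an adjusted p of 0.0426. Its fitted log2 fold change of 4.44 (standard error 0.99) rests on 5 wild type counts and depends on the prior count. The annotation places transcripts of the opposite strand over NRT1.4 and NRT1.12, and the strand setting of the counting was not given in the sources used here, so their reads cannot be told apart.

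None of 3 tested ammonium transporters passed the test in either direction, and 0 had an unadjusted p under 0.05. Of all tested genes 19.2% reached that level as lower and 13.6% as higher. AMT1;1 had 34.2, 9.46 and 21.6 CPM in wild type and 34.7, 23.8 and 33.6 CPM in trm5-1 (log2 fold change 0.50, standard error 0.45), and the fold change was 0.14 without wild type replicate 3 and 1.004 without wild type replicate 2. AMT1;2 had 16.3, 3.12 and 7.97 against 10.3, 10.5 and 9.82 CPM (0.18, standard error 0.54). Both were lowest in wild type replicate 3, and the genotypes overlapped. A transcript of the opposite strand is annotated over AMT1;1.

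Among 18 tested genes of ammonium assimilation and amino group transfer, 2 fell and 1 rose, the latter being GLN1;1. Of all tested genes 7.15% were called lower and 4.30% higher. GLB1, the plastid PII protein that senses carbon and nitrogen status, had 34.5, 30.7 and 33.1 CPM in wild type and 19.0, 16.1 and 18.6 CPM in trm5-1 (log2 fold change -0.87, standard error 0.13, adjusted p = 0.0247). GDH2, a subunit of mitochondrial glutamate dehydrogenase, had 48.8, 49.4 and 49.3 against 32.7, 37.2 and 34.1 CPM (-0.51, standard error 0.12, adjusted p = 0.0473). The genotypes did not overlap for either. GDH2 did not pass with limma (adjusted p = 0.0656), without a filter (adjusted p = 0.0828) or with at least 10 counts in every library (adjusted p = 0.0515). GLB1 also shares part of its span with a neighbouring gene on the opposite strand.

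Of 15 tested genes for cofactors and reductant, 0 fell and 1 rose, and of 27 tested nitrogen regulators 0 fell and 3 rose. The shares over all tested genes were 7.15% lower and 4.30% higher. RFNR1, a ferredoxin-NADP reductase of the root type that supplies electrons in non-green plastids, had 8.22, 11.5 and 10.14 CPM in wild type and 25.0, 37.8 and 26.4 CPM in trm5-1 (log2 fold change 1.57, adjusted p = 0.0236). CIPK23, a kinase known to phosphorylate NRT1.1, had 25.2, 20.0 and 20.5 against 52.3, 76.9 and 57.4 CPM (1.51, adjusted p = 0.0211). All trm5-1 libraries exceeded all wild type libraries for both, while NRT1.1 itself overlapped.

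The other regulators that rose were TGA1 and TCP20, transcription factors that were listed as nitrogen regulators. TGA1 had 8.74, 8.50 and 9.46 CPM in wild type and 14.1, 18.2 and 16.0 CPM in trm5-1 (log2 fold change 0.85, adjusted p = 0.0319). TCP20 had 9.85, 4.68 and 6.99 against 16.4, 15.5 and 15.9 CPM (1.16, adjusted p = 0.0483). Both had genotypes that did not overlap. TCP20 did not pass with RLE scaling (adjusted p = 0.0503), with limma (adjusted p = 0.0575) or without a filter (adjusted p = 0.0502). The NLP, LBD and BT regulators in the list did not pass the test.

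**Figure D4:**
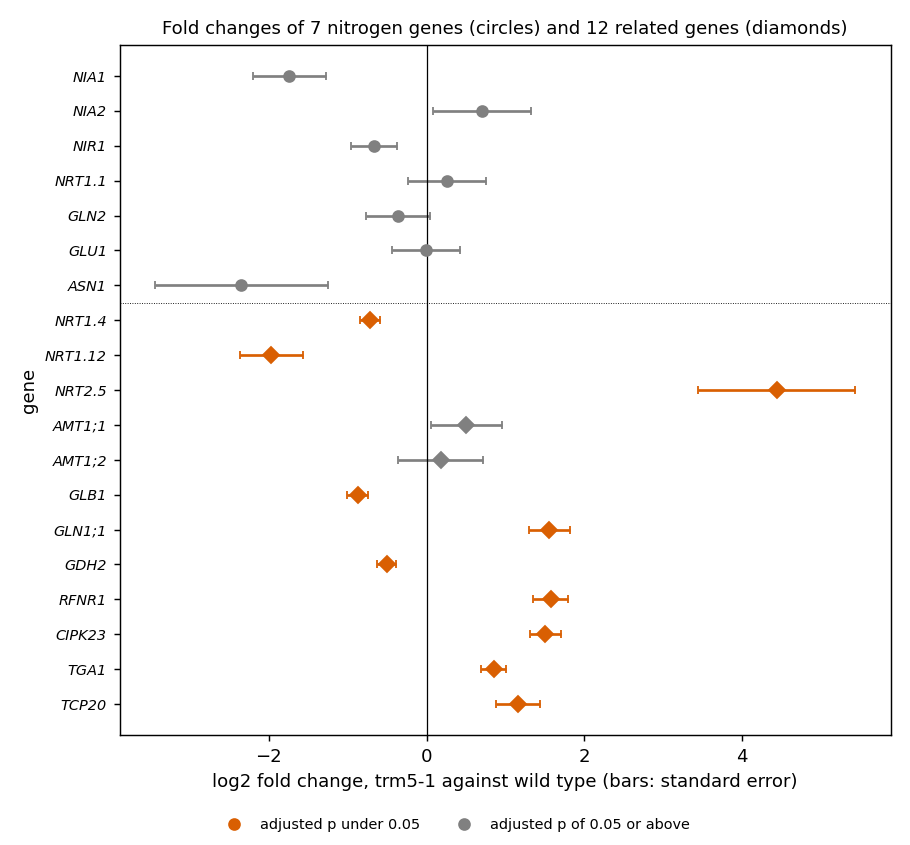
Log2 fold change of trm5-1 over wild type from edgeR with its standard error for the 7 tested nitrogen genes (circles, above the dotted line) and the 12 named related genes (diamonds), in orange where the adjusted p was under 0.05 and in grey where it was not. None of the 7 is orange, with NIA1 at -1.74 and ASN1 at -2.35, and 10 of the 12 are, from -1.97 for NRT1.12 to 4.44 for NRT2.5.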

How the data were processed

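Leaf RNA libraries of wild type and trm5-1 were grouped by genotype from the labels, with 3 libraries each. The authors trimmed reads with Trim Galore 0.4.2, mapped them to TAIR10 with STAR 2.5.3 and counted them with featureCounts, whose settings were not given in the sources used here. They deposited raw counts per gene and a second table of normalized signal, in which the authors scaled each library by a size factor (0.5889 to 1.2634). The tRNA-seq files hold none of these genes and were not used.

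The tests across genes used edgeR 4.0.16 under R 4.3.3 (filterByExpr, TMM, quasi-likelihood test, Benjamini-Hochberg adjustment over 19408 genes, threshold 0.05), and the procedure was tested on simulated data. The simulation used large known changes and the same dispersion for all genes, so it does not show how the test performs on these data. Alternatives were DESeq2 1.42.0, limma 3.58.1 on log2 of the normalized values plus 1, RLE and upper quartile scaling, no filter, at least 10 counts in every library, a replicate block, each library left out, and replicate 4 left out of both genotypes. Shares of counts used exact permutation tests of 3 libraries against 3, whose smallest p is 0.1. Named related genes are the called genes of each list, at most 4 by p, or the 2 with the smallest p where none was called. The labels do not say that the replicates came from separate plantings, so p-values measure the spread between these libraries. The 8 genes and the lists were chosen with earlier results of these data known. Coordinates and sequence are from RefSeq TAIR10.1, matched by locus identifier. Figures were drawn with matplotlib 3.10.9.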

Additional observations from a re-analysis of the deposited data

How the results depend on the processing

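Of the 8 genes, edgeR called 0 lower and 0 higher. Upper quartile normalization and DESeq2 each called 1 lower (NIA1), and leaving out 1 library gave 0 to 1, the latter ASN1 without wild type replicate 2. Over all genes, upper quartile normalization called 1478 of 19408 lower, and the fit without wild type replicate 2 called 4334 of 20199 lower. The related nitrogen genes had 4 lower and 6 higher calls of 80, where 7.15% and 4.30% of all tested genes were called. DESeq2 called 7 lower and 9 higher of 84, against 14.7% and 9.11% of all genes it tested. With 1 library left out the calls were 0 to 10 lower and 0 to 16 higher. Those fits called 0 to 4334 lower and 0 to 3263 higher over all genes. Without replicate 4 of both genotypes the related genes had 0 lower and 0 higher calls. With the replicate number as a block both counts were also 0, as were the calls over all genes. Deviations of same-numbered libraries correlated at -0.024, 0.000311 and 0.0674, so the numbers were not taken as pairing the libraries. The cause of these changes was not tested. GLU1 (-0.01) turned to 0.073 with limma, 0.015 without a filter and 0.063 with the replicate block, and lay between -0.26 and 0.37 with 1 library left out. NRT1.1 lay between -0.11 and 0.82, AMT1;1 between 0.14 and 1.004 and AMT1;2 between -0.24 and 0.90 with 1 library left out. The 4 shares, recomputed with libraries left out and per kilobase, kept their direction, though that of GLU1 shrank to 0.176 points without wild type replicate 3. Of the 10 called related genes, 10 were called with DESeq2 and upper quartile scaling, 9 with RLE, and 8 each with limma, no filter or 10 counts in every library, a filter that ASN1 and NRT2.5 did not pass.

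With 3 libraries a genotype, no share could reach a p under 0.1. Depth limited NRT2.1 (1 to 14 counts) and NRT2.5. The span of wild type limited NIA2 and ASN1.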
